A study of Vitis vinifera with 54 samples.

Results

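The flesh of Chardonnay berries (Vitis vinifera L.) from the ecological zone CC was compared between the color transition period, labelled V (80 days after early flowering), and the maturity period, labelled M (120 days). The group means compared come from 6 of the 54 libraries of the series, 3 biological replicates of V-CC and 3 of M-CC, and the comparison covers all 25133 genes of the expression table. Each replicate held pooled berries, with skin and seeds removed, so a replicate is a pool of berries, and the labels name no treatment in either group. The groups differ in developmental stage and thereby in sampling date, and these cannot be told apart. The other zones are HJZ, ZHYS, XG, XLS and HSB, and CC berries were also sampled in the enlargement period (E-CC, 40 days).

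Grape berries ripen in a second phase of growth that starts at veraison, when the flesh softens, stores glucose and fructose in its vacuoles and loses malic acid. Transport proteins carry the sugar into flesh cells, aquaporins pass water, and thaumatin-like proteins and chitinases, classed as pathogenesis-related proteins, become the main soluble proteins of the ripe flesh. Chardonnay is a white cultivar, so the late steps of anthocyanin synthesis, which color the skin of red grapes, are not needed for the look of its fruit. Between color transition and maturity most of these programs are already running, and a comparison of both stages asks which genes still move.

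Levels are given as TPM, a length-normalized share of a library's fragments that sums to a fixed total per library. Changes are given as the difference of the means of log2(TPM + 1), M minus V, a scale that compresses the change of weakly expressed genes. They were tested with limma in a fit of 51 libraries in 17 groups, so that the CC means come from the CC libraries while the spread behind each p is shared with the other groups. A gene was called when its Benjamini-Hochberg adjusted p was below 0.05 and its absolute log2 fold change was above 1. In TPM, 423 genes rose and 304 fell from V-CC to M-CC, which was 1.68% and 1.21% of the 25133 genes. In flesh as a bulk tissue, fewer cells of a type and less RNA per cell cannot be told apart. The 100 most abundant genes of a library held 47.5% to 48.8% of all TPM in the V-CC libraries and 41.7% to 43.5% in the M-CC libraries, and a smaller share for the top genes raises the TPM of all the others. The median log2 change over the 14525 genes with a mean of at least 1 TPM was 0.19 in TPM and 0.01 after median-of-ratios rescaling, a scaling that sets the typical gene equal between libraries and lowered the log2 changes by 0.21. After rescaling 293 genes rose (1.17%) and 527 fell (2.1%), so rises were 58.2% of the calls in TPM and 35.7% after rescaling. Unless marked as rescaled, the changes below are in TPM and are not corrected for that shift. In both scalings 292 rises (1.16%) and 304 falls (1.21%) were called. No gene was called in opposite directions, which a shift of this size could hardly produce. On rescaling 131 rises were lost, and 223 falls appeared only after it. Rescaling lowered the log2 changes, so a call in both scalings mainly filters rises, and all 304 falls in TPM passed it.

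The 6 CC libraries were close to each other. Across genes, which are not independent replicates, log2(TPM + 1) correlated at r = 0.992 to 0.997 for the 6 pairs of libraries within a group and at r = 0.983 to 0.985 for the 9 pairs between groups. Genes with a level above 1 TPM numbered 14220 to 14295 in V-CC and 14420 to 14628 in M-CC. ANR and LAR2, known for flavanol synthesis in seeds and skins, were low. ANR, which makes epicatechin, had 3.57, 3.62 and 4.61 TPM in V-CC and 4.07, 4.80 and 4.12 TPM in M-CC. LAR2, which makes catechin, stayed between 1.44 and 4.17 TPM in the 6 libraries. No skin or seed library is in the series to compare with, so these levels cannot check the flesh label. MADS5, a MADS-box gene of the ovule and seed class, was less even, with 256, 179 and 45.0 TPM in V-CC and 98.0, 72.9 and 111 TPM in M-CC, so V-CC replicate 3 was low for it. The part of residual seed tissue in the results was not tested.

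**Figure D1:**
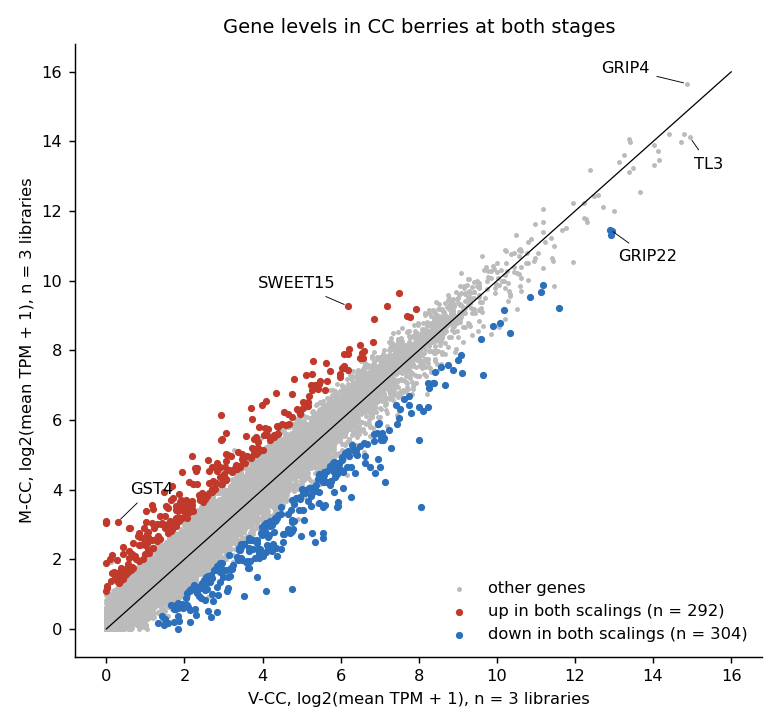
Mean level of each gene in V-CC (x axis) and in M-CC (y axis), both as log2(mean TPM + 1) over 3 libraries, with the 292 genes that rose in both scalings in red, the 304 that fell in blue and all others in grey. The line marks equal levels. No red point lies above 1000 TPM, while blue points reach the level of GRIP22.

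The genes that rose and those that fell differed in how abundant they were. The 292 genes that rose in both scalings took up 0.447% of all TPM in V-CC and 1.45% in M-CC, as sums of group means. Those that fell made up 5.52% in V-CC and 1.93% in M-CC. By the higher of both group means, 124 rising genes lay under 10 TPM, 129 between 10 and 100 TPM and 39 at 100 TPM or more, and 0 reached 1000 TPM. Among the falling genes the same classes held 93, 154 and 57 genes, of which 10 reached 1000 TPM. The median log2 change was 1.42 for the rises and -1.33 for the falls, values whose size the threshold bounds from below. An absolute log2 change above 2 was seen for 40 rises and 31 falls. In 291 of the rises and 298 of the falls the 3 M-CC libraries did not overlap with the 3 V-CC libraries, where 32.3% of all genes had M-CC entirely above V-CC and 10.2% entirely below.

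SWEET15 was the most changed gene with a symbol of its own. SWEET proteins are passive sugar carriers that let sucrose or hexoses leave the cytosol. Its level was 74.5, 66.7 and 72.7 TPM in V-CC and 623, 601 and 635 TPM in M-CC. The groups lay far apart with little spread in each, an 8.69-fold higher mean TPM (log2 fold change 3.10, SE 0.17, limma adjusted p = 2.9e-16). In the enlargement period its mean had been 250 TPM, so its V-CC level was below those of both other stages. TMT2, a tonoplast sugar transporter, rose from 11.8, 11.1 and 14.7 TPM to 29.9, 22.5 and 27.4 TPM, with a log2 fold change of 1.03 in TPM but 0.83 after rescaling, where it was not called. Its call was also lost without V-CC replicate 1 (0.99), without V-CC replicate 2 (0.95) and without M-CC replicate 1 (0.94). The phloem-type sucrose carrier VVSUC27 had 7.37, 9.39 and 12.8 TPM in V-CC and 4.88, 3.90 and 4.59 TPM in M-CC and was called lower only after rescaling (-0.96 in TPM, -1.17 rescaled). The lists hold genes with symbols, of which 11.1% were called in TPM in either direction. Of the 26 sugar and polyol transporters in the list, 2 rose and 0 fell in TPM, where 1.68% of all genes rose and 1.21% fell, and 1 rose and 1 fell after rescaling, where the shares were 1.17% and 2.1%. Their median log2 change was 0.00 beside 0.04 for all genes. For the 13 of them with a mean of at least 1 TPM it was 0.25, beside 0.19 for all such genes.

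Among 5 invertases and other sugar enzymes, 2 rose and 0 fell in TPM (1.68% and 1.21% of all genes) and 1 rose and 1 fell after rescaling, with a median log2 change of 0.76 in TPM. RAMOSA3, named after a maize gene for trehalose 6-phosphate phosphatase, had 0.64, 0.62 and 1.18 TPM in V-CC and 5.04, 4.47 and 6.08 TPM in M-CC. All M-CC libraries were higher (log2 fold change 1.78, SE 0.20, adjusted p = 5.8e-09). AGA went from 165, 167 and 197 TPM to 389, 341 and 368 TPM, a log2 fold change of 1.05 that dropped to 0.84 on rescaling, below the threshold. NIN1, a neutral invertase that splits sucrose in the cytosol, had 111, 101 and 80.7 TPM in V-CC and 50.4, 47.3 and 49.0 TPM in M-CC, and was called lower only after rescaling (-0.97 in TPM, -1.18 rescaled). Of 4 malate and tartrate enzymes 0 were called by limma, also at an unadjusted p below 0.05. The 2 most abundant of them were NADP-ME, the NADP-dependent malic enzyme, at 211 to 266 TPM in V-CC and 248 to 278 TPM in M-CC, and 2KGR at 290 to 335 TPM and 345 to 359 TPM. Among 5 nitrogen assimilation genes GS1, a cytosolic glutamine synthetase, was called, with 78.1, 82.8 and 73.5 TPM in V-CC and 172, 168 and 169 TPM in M-CC, a log2 fold change of 1.11 that became 0.90 after rescaling and was then not called.

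**Figure D2:**
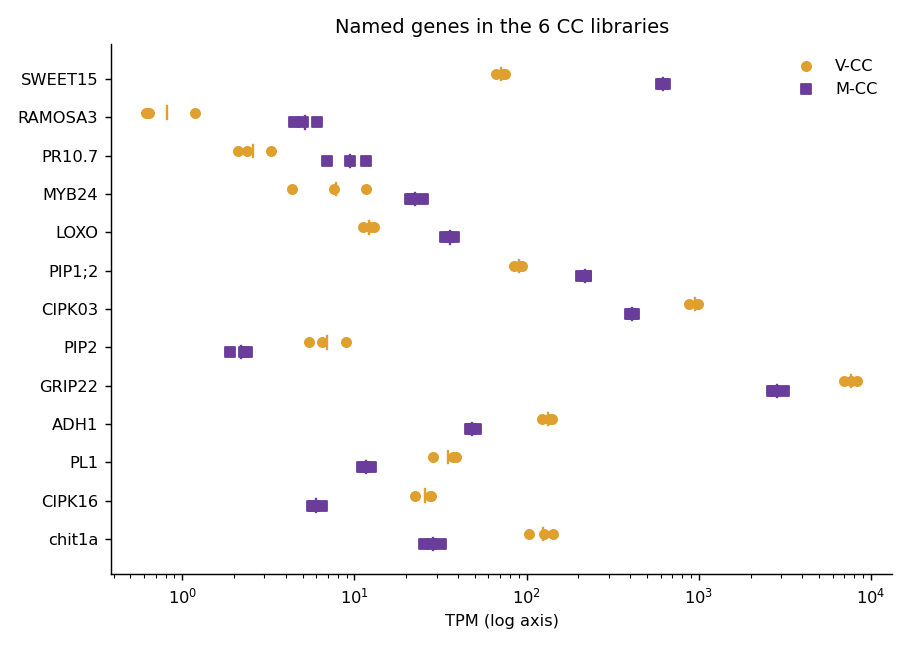
Level in TPM (log axis) of 13 genes with symbols in the 3 V-CC libraries (circles) and the 3 M-CC libraries (squares), with the mean of each group as a short line. The circles and the squares of a gene do not overlap in any row, and SWEET15 shows the widest gap among the 6 rises.

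The flavonoid and phenylpropanoid enzymes moved upward in a few members. Of 23 genes, 4 rose and 0 fell in TPM, beside 1.68% and 1.21% of all genes and 11.1% of genes with symbols in either direction. After rescaling 3 rose, beside 1.17% of all genes. The median log2 change was 0.31 beside 0.04 for all genes, and 0.60 beside 0.19 for the 19 members and for all genes with a mean of at least 1 TPM. CHS3, a chalcone synthase, the entry step to flavonoids, rose from 37.5, 38.3 and 47.6 TPM to 90.3, 80.1 and 91.2 TPM (1.07, and 0.87 after rescaling, where it was not called). The remaining 3 act at the end of anthocyanin synthesis: UFGT joins glucose to anthocyanidins, FAOMT methylates anthocyanins, and GST4 is needed to bring them into the vacuole. GST4 had 0.28, 0.00 and 0.41 TPM in V-CC and 10.34, 1.54 and 10.52 TPM in M-CC (log2 fold change 2.51, SE 0.58, adjusted p = 0.00068). UFGT had 0.34, 0.46 and 0.38 TPM in V-CC and 3.0, 0.69 and 2.59 TPM in M-CC (1.06, SE 0.19, adjusted p = 3.4e-05). FAOMT had 0.12, 0.23 and 0.47 TPM in V-CC and 3.28, 0.36 and 2.62 TPM in M-CC (1.13, SE 0.33, adjusted p = 0.0065), and its groups overlapped.

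In all 3 of these genes M-CC replicate 2 was the low library of its group, and M-CC replicates 1 and 3 carried the rise. In the whole table only 4 genes were at least 3-fold lower in M-CC replicate 2 than in both other M-CC replicates with those above 2 TPM, and they were GST4, UFGT, FAOMT and LOC109122588, a set that was chosen after its values were seen. LOC109122588 had 2.81, 0.38 and 2.44 TPM in M-CC and 2.36, 2.61 and 1.51 TPM in V-CC. The calls of UFGT and FAOMT depended on single libraries: without M-CC replicate 1 the log2 fold changes were 0.82 and 0.81, and without M-CC replicate 3 they were 0.90 and 0.93. Without M-CC replicate 2 the log2 fold change of GST4 was 3.23, that of UFGT 1.44 and that of FAOMT 1.64, while GST4 stayed called without any 1 of the 6 libraries. GST4 (adjusted p = 0.052), UFGT (0.096) and FAOMT (0.17) were not called when limma was fitted to the 6 CC libraries alone. LOC100853472, a MYB gene with the synonyms mybA, MybA1 and MybA3, from a family that switches UFGT on in red grapes, did not share the low library. It had 353, 369 and 348 TPM in V-CC and 621, 606 and 538 TPM in M-CC, a log2 fold change of 0.72 below the threshold. Which mybA locus the reads of LOC100853472 came from was not settled here.

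**Figure D3:**
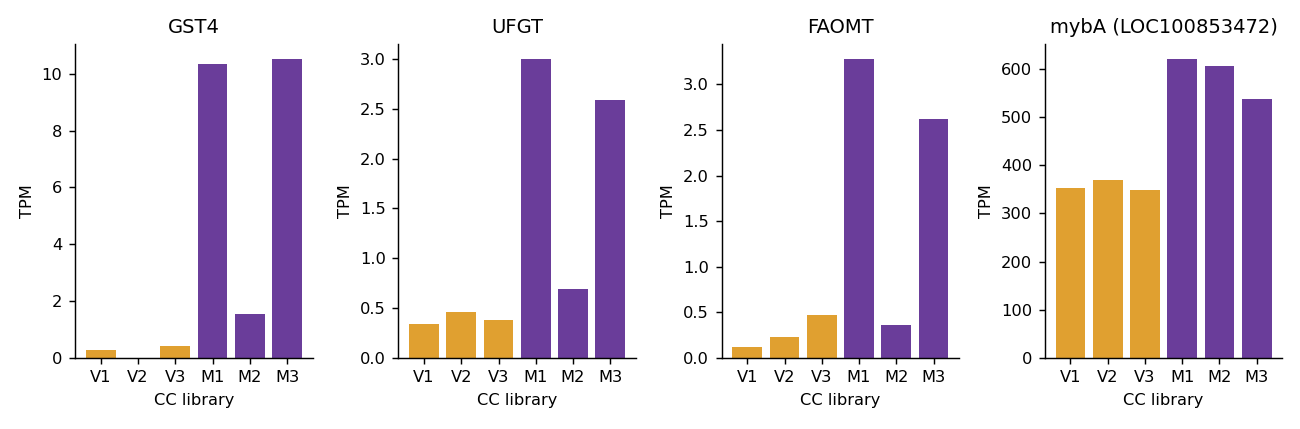
Level in TPM of GST4, UFGT, FAOMT and mybA (LOC100853472) in each of the 3 V-CC libraries (V1 to V3) and the 3 M-CC libraries (M1 to M3), 1 bar per library, each panel with its own axis from 0. The bar of M2 is low in the first 3 panels and level with M1 and M3 in the panel of mybA.

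Of 16 listed regulators of the flavonoid pathway, 1 rose and 0 fell in TPM (1.68% and 1.21% of all genes), and 1 rose and 2 fell after rescaling (1.17% and 2.1%). The 11 with a mean of at least 1 TPM had a median log2 change of 0.13, beside 0.19 for all such genes. MYB24, an R2R3-MYB factor, had 11.6, 4.36 and 7.59 TPM in V-CC and 21.1, 21.5 and 25.1 TPM in M-CC (1.49, SE 0.28, adjusted p = 4e-05). It was not called with a pseudocount of 0.1 (adjusted p = 0.069). MYBC2-L1, a repressor-type MYB, and MYBCS1 were called lower only after rescaling, with log2 changes of -0.98 and -0.92 in TPM and -1.19 and -1.13 rescaled. The stilbene genes were not called: MYB14, which switches on stilbene synthases, had 94.6 to 110 TPM in V-CC and 148 to 169 TPM in M-CC. VINST1, a stilbene synthase, ranged from 7.17 to 30.02 TPM in V-CC and from 14.8 to 29.96 TPM in M-CC, so its groups overlapped.

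Proteins of ripe flesh were among the most abundant genes at both stages. Of 19 pathogenesis-related genes 1 rose and 1 fell in TPM, where 1.68% of all genes rose and 1.21% fell, with a median log2 change of 0.02. The 11 with a mean of at least 1 TPM had a median log2 change of -0.47, beside 0.19 for all such genes. The thaumatin-like gene TL3 had 30172, 33098 and 31047 TPM in V-CC and 16134, 18873 and 18518 TPM in M-CC. It was the most abundant gene of V-CC, and its log2 fold change of -0.82 in TPM became -1.03 after rescaling, where it was called. TL1, also thaumatin-like, had 26971, 26519 and 27252 TPM in V-CC and 17186, 15773 and 15736 TPM in M-CC (-0.73, SE 0.19, adjusted p = 0.0018), and CHI4D, a class IV chitinase, had a mean of 16511 TPM in V-CC and 10239 TPM in M-CC (-0.69), so neither passed the threshold on the change. The summed level of the 19 genes was 80444 to 85011 TPM in the V-CC libraries and 48238 to 51748 TPM in the M-CC libraries. A chitinase gene, chit1a, was called, with 126, 143 and 103 TPM in V-CC and 25.3, 32.0 and 28.0 TPM in M-CC, a 4.36-fold lower mean (-2.08, SE 0.33, adjusted p = 4.5e-06). PR10.7 went the other way, from 2.12, 2.39 and 3.27 TPM to 6.97, 9.48 and 11.7 TPM (1.52, SE 0.25, adjusted p = 5.7e-06).

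Genes first known as grape ripening-induced proteins also gave few calls. Of 11, 0 rose and 1 fell (1.68% and 1.21% of all genes), with a median log2 change of -0.12. GRIP22 had 8290, 6977 and 7618 TPM in V-CC and 2734, 3125 and 2653 TPM in M-CC (-1.43, SE 0.25, adjusted p = 2.3e-05), and it was not called under quantile normalization (-0.93). GRIP4 was the most abundant gene of M-CC, at 28709, 28301 and 32833 TPM in V-CC and 49440, 57816 and 47976 TPM in M-CC. The 2 groups of GRIP4 did not overlap, but its log2 fold change of 0.79 lay below the threshold and became 0.58 after rescaling. MRIP1 had means of 10754 and 17186 TPM (0.68, and 0.46 after rescaling). The summed level of the 11 genes was 79921 to 88268 TPM in V-CC and 102830 to 118095 TPM in M-CC, so the sum was higher in M-CC while the single call was a fall. Among genes called in both scalings, LOC100263272, LOC100233076 and GRIP22 had the largest losses in TPM, the former pair from a mean of 7785 to 2552 TPM (-1.59) and from 7961 to 2763 TPM (-1.53), and neither has a symbol of its own.

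Water channels and calcium signalling genes gave calls in both directions. Among 10 aquaporins 1 rose and 1 fell, beside 1.68% and 1.21% of all genes, with a median log2 change of 0.12. PIP1;2, a plasma membrane aquaporin, had 85.0, 90.7 and 93.6 TPM in V-CC and 223, 206 and 223 TPM in M-CC (1.26, SE 0.07, adjusted p = 2.7e-15). PIP2 had 5.48, 6.47 and 8.90 TPM in V-CC and 1.90, 2.39 and 2.28 TPM in M-CC (-1.30, SE 0.17, adjusted p = 2.1e-07). The summed level of the 10 genes was 3039 to 3379 TPM in V-CC and 3020 to 3311 TPM in M-CC.

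CBL proteins sense calcium and activate CIPK kinases. Of 26 listed genes 1 rose and 4 fell in TPM, where 1.68% of all genes rose and 1.21% fell and 11.1% of genes with symbols were called. After rescaling 0 rose and 6 fell, where the shares of all genes were 1.17% and 2.1%. The list had a median log2 change of -0.03 in TPM. CIPK03 was the most abundant of those called, with 993, 879 and 977 TPM in V-CC and 411, 399 and 423 TPM in M-CC (-1.20, SE 0.13, adjusted p = 1.9e-09). CIPK16 fell from 27.4, 22.4 and 27.7 TPM to 6.47, 5.82 and 5.64 TPM (-1.94, SE 0.14, adjusted p = 5.5e-13). CBL07 and CIPK19 fell by 1.43 and 1.18 on the log2 scale, and CIPK02 and CIPK14 were called lower only after rescaling. CBL08 rose by 1.10 in TPM and was not called after rescaling (0.96).

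Carotenoid and aroma genes gave 2 rises and 2 falls among 16, beside 1.68% and 1.21% of all genes and 11.1% of genes with symbols in either direction, with a median log2 change of 0.01. LOXO, a lipoxygenase, the enzyme class that opens the path from fatty acids to leaf-like aldehydes, had 13.1, 11.2 and 12.2 TPM in V-CC and 35.5, 33.8 and 38.1 TPM in M-CC (1.48, SE 0.09, adjusted p = 1.3e-14). HYD2 rose from 3.05, 4.84 and 3.11 TPM to 9.21, 9.20 and 9.86 TPM (1.18, SE 0.23, adjusted p = 9e-05) and was not called under quantile normalization (0.96). ADH1, an alcohol dehydrogenase, had 135, 123 and 140 TPM in V-CC and 51.0, 46.9 and 47.4 TPM in M-CC (-1.43, SE 0.18, adjusted p = 6.8e-08). BCH1 fell from 31.5, 35.1 and 32.5 TPM to 16.1, 12.8 and 15.6 TPM (-1.11, SE 0.17).

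In the remaining lists calls were few, read beside 1.68% rises and 1.21% falls over all genes. PL1 was the single call among 5 cell wall genes, with 37.3, 28.8 and 38.7 TPM in V-CC and 11.5, 11.1 and 12.5 TPM in M-CC (-1.49, SE 0.18, adjusted p = 2.3e-08). MLO7 was called among 7 MLO genes, whose family holds susceptibility genes for powdery mildew, with 0.39, 0.25 and 0.14 TPM in V-CC and 1.68, 1.94 and 2.03 TPM in M-CC (1.20, SE 0.25). MADS3 rose among 17 MADS-box and flowering genes by 1.11 in TPM and was not called after rescaling (0.94). Among 18 hormone genes, 17 stress and antioxidant genes and 7 chloroplast and light genes limma called 0, also at an unadjusted p below 0.05. DHN1, a dehydrin, had 1928, 2778 and 3441 TPM in V-CC and 1976, 1022 and 1863 TPM in M-CC, and its groups overlapped.

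**Figure D4:**
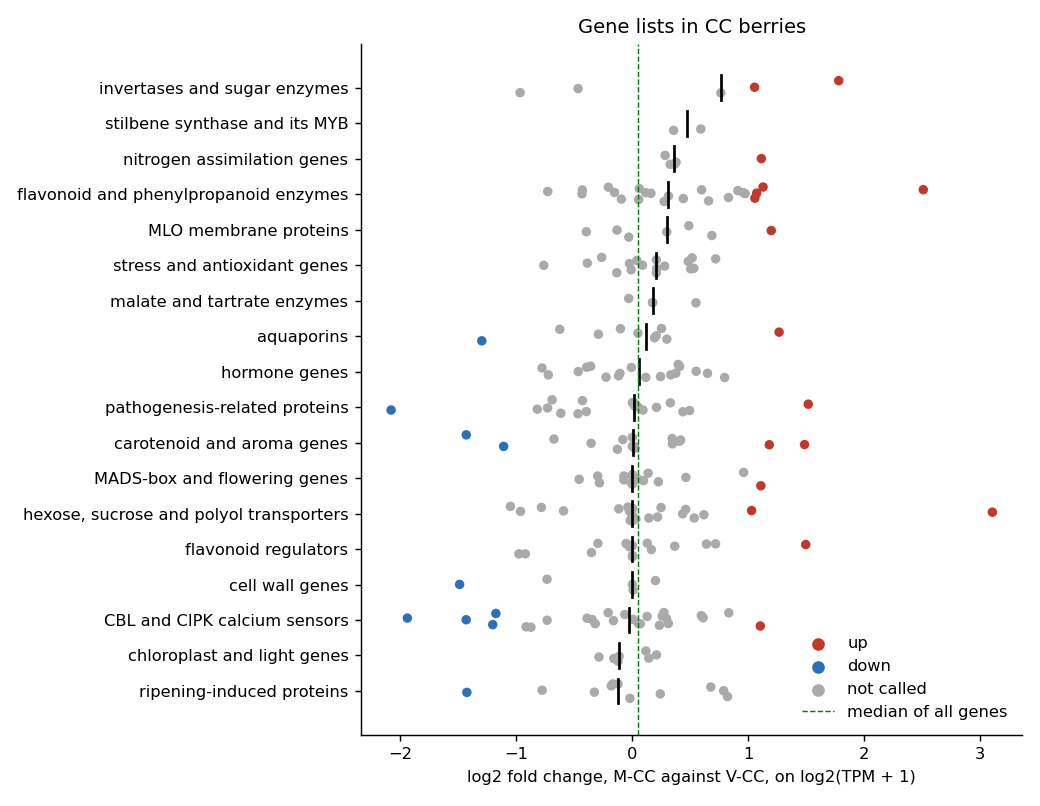
Log2 fold change from V-CC to M-CC in TPM for each member of the 18 gene lists, 1 point per gene, with called rises in red, called falls in blue, genes not called in grey and the list's median as a black bar. The dashed line is the median of all genes at 0.04, and in each list most points are grey.

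Of the 341 genes with a symbol or synonym of their own, 24 rose and 14 fell in TPM, or 11.1%, beside 2.89% of all genes, and 13 rises and 14 falls were called in both scalings. Genes outside the lists included CTR2, a copper transporter, which rose from 25.9, 21.7 and 25.0 TPM to 73.8, 71.1 and 68.6 TPM (1.52, SE 0.14). THI1-1, of thiamine synthesis, rose from 709, 713 and 916 TPM to 1684, 1600 and 1754 TPM (log2 fold change 1.12 in TPM) and was not called after rescaling (0.91). GER7 had 4933, 3350 and 1026 TPM in V-CC and 700, 517 and 582 TPM in M-CC, a log2 fold change of -2.11 with an SE of 0.79 (adjusted p = 0.036). As in MADS5, V-CC replicate 3 was the low one.

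The largest fall and the largest rise on the log2 scale belonged to genes without a symbol. LOC100260126 fell most, from 254, 243 and 302 TPM in V-CC to 12.3, 8.38 and 10.03 TPM in M-CC, a 25.99-fold lower mean (-4.58, SE 0.24, adjusted p = 1.6e-16). In E-CC its mean was 2.27 TPM, so its high level was seen at the color transition among the CC groups. LOC100253073 had the same form, at 1.48 TPM in E-CC, 149, 124 and 146 TPM in V-CC and 17.4, 16.8 and 18.4 TPM in M-CC (-2.92, SE 0.18). LOC100853085 fell from 267, 252 and 253 TPM to 43.2, 43.9 and 39.9 TPM (-2.58, SE 0.23). For other large falls the V-CC replicates were uneven: LOC100263621 had 51.1, 12.4 and 13.95 TPM, LOC100263730 had 31.3, 8.99 and 7.41 TPM and LOC100265151 had 78.6, 23.5 and 16.6 TPM, all high in V-CC replicate 1. LOC100265151 was no longer called without V-CC replicate 1 (-1.90, adjusted p = 0.066).

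The largest rise on the log2 scale was that of LOC100244546, from 8.05, 5.33 and 6.65 TPM to 66.9, 60.2 and 81.1 TPM (3.20, SE 0.17, adjusted p = 1.5e-16). Among genes called in both scalings, the largest gain in TPM was that of LOC100263489, from 202, 171 and 167 TPM to 846, 763 and 789 TPM (2.15, SE 0.22). LOC109121661 and LOC100265435 were listed at 0 in all 3 V-CC libraries and in the mean of E-CC, and had 7.96, 5.28 and 8.36 TPM and 7.66, 7.84 and 7.24 TPM in M-CC. In total 5 of the rising genes were listed at 0 in all V-CC libraries and 1 of the falling genes in all M-CC libraries.

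Some called genes lay next to each other. The RefSeq gene table for the assembly ASM3070453v1 placed 23256 of the genes compared, of which 569 were called in both scalings. In its order, with genes that had no value here skipped, 43 pairs of direct neighbours were called in the same direction and 6 in opposite directions. The pairs in the same direction formed 31 runs with 74 genes, 18 of rising and 13 of falling genes. How many such pairs the shares of called genes would give was not computed. The longest held 5 rising genes, LOC100264828, LOC100242538, LOC100247673, LOC100252779 and LOC100257932, with log2 fold changes of 1.40, 1.23, 1.33, 1.76 and 1.59. In the same order their log2 fold changes were 1.40, 2.49, 1.35, 3.50 and 3.71 in ZHYS but -1.81, -1.98, -1.71, -2.39 and -2.73 in XG. A run of 4 held LOC100249695, LOC100244546, LOC100256656 and LOC100246382, with 2.08, 3.20, 2.50 and 1.39. LOC109121661 and LOC100265435 were also direct neighbours, and so were LOC109123939 and GER7. Neighbours of this kind can be near-identical copies, and how reads shared by such copies were counted is not given in the sources used here, so the values of single genes in a run are uncertain.

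The same genes were then looked up in the other zones. Their libraries gave no part of the CC means, but they share the fit and its estimate of the spread with the calls in CC. Of the 292 rises, 218 (74.7%) were called as rises from V to M in ZHYS, where 6.26% of all genes rose, 138 (47.3%) in XG, where 8.41% rose, and 87 (29.8%) in HJZ, where 1.48% rose. Of the 304 falls, 204 (67.1%) fell in ZHYS, where 3.01% of all genes fell, 114 (37.5%) in XG, where 5.04% fell, and 94 (30.9%) in HJZ, where 0.927% fell. These shares moved with the scaling. With the other zones rescaled too, the rises shared were 190 (65.1%) in ZHYS, 129 (44.2%) in XG and 56 (19.2%) in HJZ. The falls shared were then 233 (76.6%), 131 (43.1%) and 133 (43.8%). Of all genes, 3.80%, 6.22% and 0.967% rose and 4.68%, 6.89% and 1.48% fell in that scaling. A call in all of these 3 zones was seen for 50 rises and 41 falls, and a call in none of them for 42 rises and 56 falls. Of all 25133 genes, 0.692% rose and 0.302% fell in all 3, and 87.6% had no rise and 92.9% no fall in any. Among these 3 zones opposite calls were most frequent in XG, for 19 of the rises and 30 of the falls, against 0 and 4 in ZHYS and 1 and 0 in HJZ. SWEET15 rose in each, from a mean of 166 to 1138 TPM in HJZ, from 71.7 to 679 TPM in ZHYS and from 150 to 758 TPM in XG. HSB gave the same call for 69 rises (23.6%, beside 4.16% of all genes) and 136 falls (44.7%, beside 19.8%), and an opposite call for 63 and 47. After rescaling HSB gave the same call for 109 rises (37.3%, beside 8.37%) and 114 falls (37.5%, beside 12.4%). The opposite calls were then 41 and 63. An earlier analysis of these data found V-HSB close to the enlargement period, so the step from V to M in HSB is not like for like with that in CC. HSB was therefore kept out of the contrast between zones.

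Whether a change in CC differed from the mean change in HJZ, ZHYS and XG was tested as a contrast in the same limma fit. That mean can average opposite changes, so a positive difference need not hold against each zone. LOC100266747, for example, had log2 fold changes of 2.48 in CC, 0.51 in HJZ, 3.64 in ZHYS and -1.07 in XG. The difference was called for 763 genes (3.04%), with 297 positive (1.18%) and 466 negative (1.85%). Of the 596 genes called in CC in both scalings, 450 showed no called difference. Among the rises, 64 rose more in CC than in the mean of the other zones and 13 less. Among the falls, 59 fell further in CC and 10 less far. These genes were picked for a large change in the same CC libraries that enter the difference. That selection favors larger changes in CC, so neither split was read as a result. Of the 763 genes, a further 22 were called between V-CC and M-CC in TPM but not in both scalings, and 595 were not called there in TPM.

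GST4 had one of the most positive differences, 2.88 (SE 0.67, adjusted p = 0.0011). Its means were 3.43 and 0.157 TPM at V and M in HJZ, 1.14 and 0.513 TPM in ZHYS and 1.79 and 3.51 TPM in XG, with single libraries from 0.15 to 9.54 TPM in V-HJZ and from 0.67 to 8.52 TPM in M-XG. UFGT and FAOMT also differed, by 1.12 and 1.40, and their means in these 3 zones stayed between 0.0467 and 1.26 TPM at both stages. PIP1;2 had a difference of 1.19 (SE 0.09, adjusted p = 2e-12): its V-CC mean of 89.8 TPM was close to the 96.3 TPM of V-ZHYS and below the 234 TPM of V-HJZ and the 230 TPM of V-XG. LOC100854413 went from a mean of 1.23 to 10.79 TPM in CC and stayed between 0.250 and 3.27 TPM in the group means of the 3 other zones (difference 1.93, SE 0.19).

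Other genes rose less in CC than in the mean of HJZ, ZHYS and XG, though not against each zone shown. For those zones only levels at M are given here. MYB24 reached 22.6 TPM on average in M-CC, 81.2 TPM in M-HJZ and 74.4 TPM in M-XG but 5.16 TPM in M-ZHYS, with a difference of -1.35 (SE 0.32). MLO7 reached 1.88 TPM in M-CC, 2.24 TPM in M-HJZ, 12.1 TPM in M-ZHYS and 13.1 TPM in M-XG (-1.29, SE 0.29). LOC100853526 had the most negative difference among the named rises, -3.19 (SE 0.43), with 24.1, 23.4 and 13.2 TPM in V-CC and 37.3, 43.3 and 61.2 TPM in M-CC against a mean of 483 TPM in M-XG. Its rise in CC was not called without V-CC replicate 3 (0.93, adjusted p = 0.087) or without M-CC replicate 3 (adjusted p = 0.069).

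Among the falls, chit1a fell further in CC (difference -2.15, SE 0.38, adjusted p = 4.7e-05). Its V-CC mean of 124 TPM stood above 32.7 TPM in V-HJZ, 51.7 TPM in V-ZHYS and 13.3 TPM in V-XG, while the M means lay between 25.1 and 37.7 TPM in all 4 zones. The zones were far apart at V and close together at M. LOC100260126 was likewise highest in V-CC, with V means of 266 TPM in CC, 65.8 TPM in HJZ, 135 TPM in ZHYS and 112 TPM in XG. PL1 and ADH1 fell less far in CC, with differences of 1.66 and 1.01: PL1 had a mean of 34.9 TPM in V-CC, 40.3 TPM in V-HJZ, 291 TPM in V-ZHYS and 223 TPM in V-XG.

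**Figure D5:**
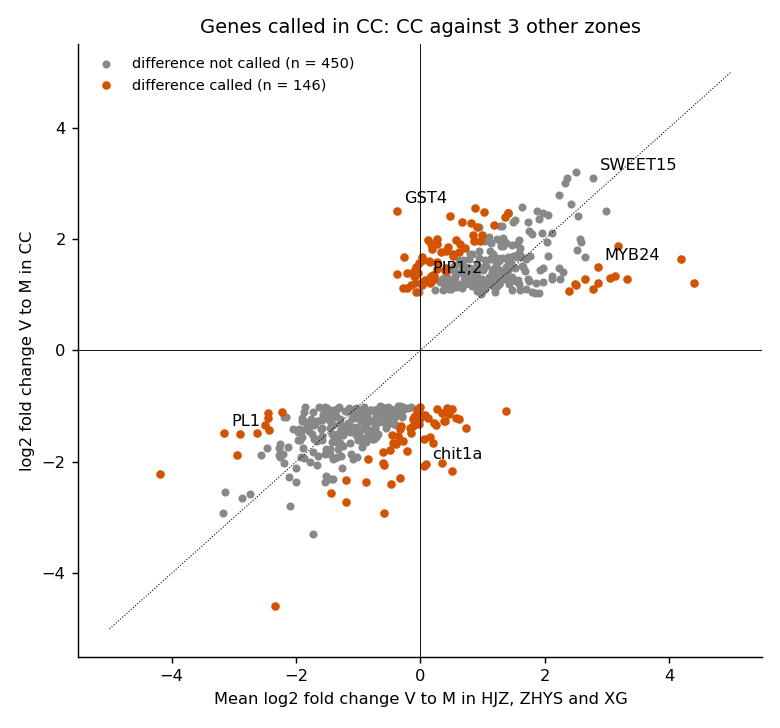
Log2 fold change from V to M in CC (y axis) against the mean of the same change in HJZ, ZHYS and XG (x axis) for the 596 genes called in CC in both scalings, with the 146 genes whose difference was called in orange and the other 450 in grey. The dotted line marks equal changes, and GST4 and chit1a lie on opposite sides of it, while SWEET15 is close to it.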

How the data were processed

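The TPM values deposited by the authors, rounded to 2 decimals, came from HISAT2 alignments counted per gene by featureCounts, for 54 libraries in 18 groups of 3 biological replicates. The study's methods point to an Ensembl Plants grapevine annotation, while the deposited IDs are NCBI Gene numbers. Tool versions and the name of the assembly are not given in the sources used here. TPM keeps no sequencing depth and the study's read totals were not used here, so precision rests on the spread between replicates. Groups came from the labels, and 0 columns were left without a sample. Symbols came from the RefSeq table of ASM3070453v1, which held 23256 of the 25133 IDs.

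Log2(TPM + 1) was fitted with limma 3.58.1 (R 4.3.3) with a variance trend, 17 group means and 51 libraries (34 residual degrees of freedom). V-XLS was left out because an earlier analysis found its replicates unlike each other. Rescaling used median-of-ratios factors from 16575 genes. Other values were computed with Python 3.11.15, pandas 2.3.3 and numpy 2.4.6, and figures drawn with matplotlib 3.10.9. On simulated data for the CC comparison with 25133 genes and 200 changed genes, 91% of changes of log2 2 and 100% of log2 3 were recovered with 1 false call, and for the difference between zones the rates were 91% and 100% with 2 false calls. The changed genes were drawn from those above about 10 TPM in V-CC, with independent normal noise and no shift in scaling. Smaller changes and weaker genes were not simulated. Of the calls in both scalings, 124 rises and 93 falls lay under 10 TPM by the higher group mean, so these rates do not cover them.

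The members and lists were chosen with earlier results of these data known. The lists (18, with 234 genes) were set by symbols after the annotation columns were seen, in place of planned description patterns, and before any call was computed here. Named genes were, among genes called in both scalings with no overlap between groups, the 12 largest rises and falls by log2 change. From the same pool came the 3 largest rises and falls by TPM. It also gave the 5 most positive and 5 most negative called differences between zones. Each list gave up to 4 members called in TPM alone, even with overlapping groups, or its 2 most abundant where none was called. Genes called among those with symbols, the most abundant genes, tissue markers, runs of neighbours and genes with a low library were named in addition, after their values were seen. The alternatives were another pseudocount, a filter, other scalings, a replicate block, other libraries in the fit, an unadjusted p and leaving out each CC library. A single gene among those the rule names was left out and is not reported here.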

Additional observations from a re-analysis of the deposited data

Results flagged for a closer look

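A change from V to M in CC that differed from the mean change in HJZ, ZHYS and XG was found by the limma contrast for 763 genes, of which 29 genes are listed here with the difference in log2 fold change, CC minus the other zones (adjusted p below 0.05 for each). Positive differences were 2.88 for GST4, 1.97 for LOC100255237, 1.93 for LOC100232906, 1.93 for LOC100854413, 1.85 for LOC100854121, 1.68 for LOC100242544, 1.66 for PL1, 1.46 for LOC100266747, 1.40 for FAOMT, 1.19 for PIP1;2, 1.12 for UFGT and 1.01 for ADH1. Of these, LOC100255237, PL1 and ADH1 fell in CC and fell further in the mean of the other zones.

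Negative differences among genes that rose in CC were -3.19 for LOC100853526, -2.54 for LOC100242903, -1.35 for MYB24, -1.32 for HYD2 and -1.29 for MLO7. These rose less in CC than in the mean of the other zones. Among genes that fell in CC they were -2.67 for LOC100248570, -2.47 for LOC100261255, -2.36 for LOC100233023, -2.34 for LOC100241372, -2.24 for LOC100260126, -2.15 for chit1a, -1.93 for LOC100251494, -1.53 for LOC100263730, -1.50 for LOC100253026, -1.12 for LOC100259505 and -1.09 for BCH1. For VINST1, not called in CC, the difference was -2.49. In XG, chit1a rose from a mean of 13.3 to 37.7 TPM and LOC100248570 from 1.66 to 16.1 TPM while both fell in CC.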

How the results depend on the processing

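The counts were 423 rises, 304 falls and 763 differences from HJZ, ZHYS and XG. With a pseudocount of 0.1 they were 985, 639 and 1684. Median-of-ratios rescaling gave 527 falls and quantile normalization gave 274 rises. Adding HSB, whose V group an earlier analysis found close to the enlargement period, to the other zones gave 1385 differences. The cause of these shifts was not tested. Leaving out each CC library in turn gave 391 to 449 rises, 290 to 357 falls and 731 to 812 differences. The replicate numbers showed no sign of pairing the samples. Deviations of same-numbered V-CC and M-CC libraries from their group means correlated at -0.18, 0.04 and -0.01. For libraries with different numbers the correlations ran from -0.28 to 0.29. With 3 libraries in each group these values cannot exclude a pairing. With the replicate number as a block the counts were 423, 307 and 759. Counts under the filter, the unadjusted p and the fits with other libraries stayed within 1.5 times the main ones. Of 71 named genes, 61 were called in TPM, 57 kept their direction and their side of the threshold under every alternative run for single genes, and 0 reversed. Other losses included FAOMT and LOC100853526 with a pseudocount of 0.1 (adjusted p = 0.070 and 0.058), and the fall of LOC100255237 and the rise of MYB24 were not called with all 54 libraries in the fit (adjusted p = 0.076 and 0.10). How depth limits genes with low TPM was not tested, since TPM keeps no counts.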

Other observations

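Among the most abundant genes, LOC100853570 had the widest spread, with 4944, 13402 and 20457 TPM in V-CC and 7087, 3464 and 7360 TPM in M-CC, so its groups overlapped. A gene at least 3-fold above or below both other replicates of its group, with a level above 2 TPM on the higher side, was seen 39, 19 and 44 times in V-CC replicates 1, 2 and 3 and 10, 6 and 18 times in M-CC replicates 1, 2 and 3.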
